A study of Homo sapiens with 6 samples.

Results

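Glutathione S-transferases are enzymes that join glutathione to reactive compounds, and 10 of their genes were described here after knockdown of the transcription factor FOXA1. They were taken by gene symbol: the cytosolic genes GSTP1 (pi class), GSTM2, GSTM3 and GSTM4 (mu class), GSTO1 (omega class) and GSTZ1 (zeta class), the mitochondrial and peroxisomal GSTK1 (kappa class), and the membrane-bound MGST1, MGST2 and MGST3. Each symbol matched 1 row, giving 10 of the 61859 genes in the table. RNA sequencing was done on OSC19SSZR, an oral squamous cell carcinoma line made resistant to sulfasalazine, which blocks cystine uptake. All 6 samples were of this resistant line, with 3 given control siRNA and 3 given FOXA1 siRNA by lipid transfection, and RNA was taken at 48 h. The parental line was not analysed here, and how many siRNA sequences were used is not given in the sources used here.

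Cytosolic transferases bind glutathione and an electrophile side by side and link the sulfur of glutathione to the electrophile, which makes the product soluble in water. The conjugate is then pumped out of the cell by ABCC transporters and trimmed outside by gamma-glutamyltransferases on the way to a mercapturate. The microsomal enzymes are unrelated in fold. They sit in membranes, belong to a family known as MAPEG that also makes leukotrienes and prostaglandins, and several of them reduce lipid hydroperoxides. In squamous carcinomas GSTP1 is usually the main transferase, and many transferase genes are known targets of NRF2 through the antioxidant response element.

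The promoters of GSTP1, GSTZ1 and GSTO1 are shown because they hold different combinations of forkhead and antioxidant motif letters next to different results: GSTP1 and GSTZ1 fell after knockdown, and GSTO1 did not pass the test. The letters searched on both strands in the 250 bases before the RefSeq start (GRCh38.p14) were TGTTTAC for forkhead factors, TGACNNNGC for the core of the antioxidant response element, TGACTCA for AP-1, which can lie inside the former, and GGGCGG for the GC box. Capitals mark the matches to the first 3, and GC boxes are left in lower case.
GSTP1: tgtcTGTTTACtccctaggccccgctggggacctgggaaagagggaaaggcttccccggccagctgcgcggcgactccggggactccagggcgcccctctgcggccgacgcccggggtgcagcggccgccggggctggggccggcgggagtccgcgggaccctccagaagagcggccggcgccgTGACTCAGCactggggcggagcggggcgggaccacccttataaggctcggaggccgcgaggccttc
GSTZ1: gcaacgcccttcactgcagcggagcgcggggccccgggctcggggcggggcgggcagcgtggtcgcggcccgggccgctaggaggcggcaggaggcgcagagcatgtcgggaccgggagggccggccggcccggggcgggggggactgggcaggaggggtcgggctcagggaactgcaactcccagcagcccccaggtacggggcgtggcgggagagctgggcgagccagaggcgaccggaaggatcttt
GSTO1: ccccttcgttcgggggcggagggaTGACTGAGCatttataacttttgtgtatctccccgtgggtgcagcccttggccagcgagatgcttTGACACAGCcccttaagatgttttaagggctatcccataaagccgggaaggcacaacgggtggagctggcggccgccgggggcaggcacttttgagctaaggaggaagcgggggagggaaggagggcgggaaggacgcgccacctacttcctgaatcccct
The GSTP1 window (chr11:67583562-67583811, plus strand) held TGTTTAC from 246 to 240 bases before the start and TGACTCAGC from 66 to 58 bases before it, where the AP-1 letters overlap the antioxidant core. The GSTO1 window (chr10:104254642-104254891, plus strand) held TGACTGAGC and TGACACAGC and no forkhead letters. The GSTZ1 window (chr14:77320786-77321035, plus strand) held 3 GC boxes and none of the other 3 motifs. Of 35116 promoters of this length, 2.98% held the forkhead letters, 10.9% the antioxidant core, 4.2% the AP-1 letters and 42.6% a GC box. RefSeq windows matched 9 of the 10 members, and none was found for MGST2, which was narrowly called lower. Like that of GSTZ1, the windows of GSTK1, MGST3, MGST1, GSTM2, GSTM3 and GSTM4 held no forkhead, antioxidant or AP-1 letters. Of these, GSTK1 and MGST3 were tested and did not pass. These matches describe letters in a window and say nothing of binding.

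The knockdown was visible in every library labelled FOXA1 siRNA. The 3 control libraries held 1477, 1378 and 1459 normalized counts of FOXA1, and the 3 knockdown libraries held 247, 192 and 189. Reads per library ranged from 16510125 to 25732569. Of 8 squamous keratinocyte markers all were detected, and their summed level was 54863 to 57391 in the controls and 56149 to 58240 after knockdown. Within this sum, held mostly by KRT5 and PERP, 2 markers rose (SFN by 1.14 and DSG3 by 0.65 on the log2 scale) and 3 fell (LY6D -0.62, TP63 -0.40 and KRT5 -0.18). KRT6A stood apart in control siRNA replicate 3, at 802 normalized counts against 38.3 to 178 in the other 5 libraries. Markers of other cells were mostly under 10 normalized counts in every library (5 of 6 for fibroblasts, 3 of 4 for leukocytes and 2 of 3 for endothelium). Their sums moved down with the knockdown, from 148 to 165 down to 92.5 to 137 for fibroblasts, from 542 to 571 down to 279 to 302 for endothelium, and from 103 to 114 down to 77.2 to 102 for leukocytes. COL1A1, CDH5 and CD68 held nearly all of these sums, LUM and DCN were at 0, and PECAM1 and VWF stayed at or under 5.71, and the part of these markers in the results on transferases was not tested. The labels do not say whether replicates were separate cultures, so p-values measure the spread between these samples only. In limma this spread, and the SE printed with it, is pooled in part over all tested genes.

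Only part of the transferase family was expressed in these cells. Of the 10 genes, 6 reached a mean of 10 normalized counts and were tested, and the other 4 were at or near 0 in all libraries whatever the siRNA. GSTM2 had 2 reads over the 3 control libraries and 1 over the 3 FOXA1 siRNA libraries. GSTM4 had 1 read and 0 reads. GSTM3 had 0 reads among 114573293, with an upper limit of 3.69 reads (exact two-sided 95% Poisson interval). MGST1, an enzyme of the endoplasmic reticulum and outer mitochondrial membrane, had 8 reads with control siRNA (the same kind of interval 3.45 to 15.8) and 2 with FOXA1 siRNA (0.242 to 7.22). These intervals overlap and cover counting error only. The remaining mu genes were no higher, with 2 reads for GSTM1 and 0 for GSTM5, so the whole mu class summed to 5 reads with control siRNA and 1 with FOXA1 siRNA. Of the 50-base windows of the principal GSTM2 transcript, only 25.4% occurred in no other gene, and GSTM1 and GSTM4 shared the most of them. That share was 94.1% for GSTM3, 86.0% for GSTM4 and 100% for MGST1. How shared reads were counted is not given in the sources used here, and the part of shared sequence in the low GSTM2 value was not tested.

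Levels between genes were set side by side per 1000 bases of the principal transcript in GENCODE 29. With control siRNA, GSTP1 was the highest at 1744 ± 35.1 normalized counts per 1000 bases (SD, n = 3), followed by GSTO1 at 1027 ± 2.98. GSTK1 at 789 ± 28.0 and MGST3 at 738 ± 32.4 came next, and their libraries overlapped, so the order of these neighbours lies within their spread. GSTZ1 stood below both at 616 ± 57.7 and MGST2 below that at 162 ± 9.57. The order was the same after FOXA1 siRNA. There, GSTP1 was at 1385 ± 133 and GSTO1 at 1119 ± 82.1, with the lowest GSTP1 library at 1233 and the highest GSTO1 library at 1213. With the length of all merged exons, GSTZ1 and MGST3 changed places in the controls, and GSTP1 and GSTO1 overlapped after FOXA1 siRNA (697 ± 66.7 and 696 ± 51.1).

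**Figure D1:**
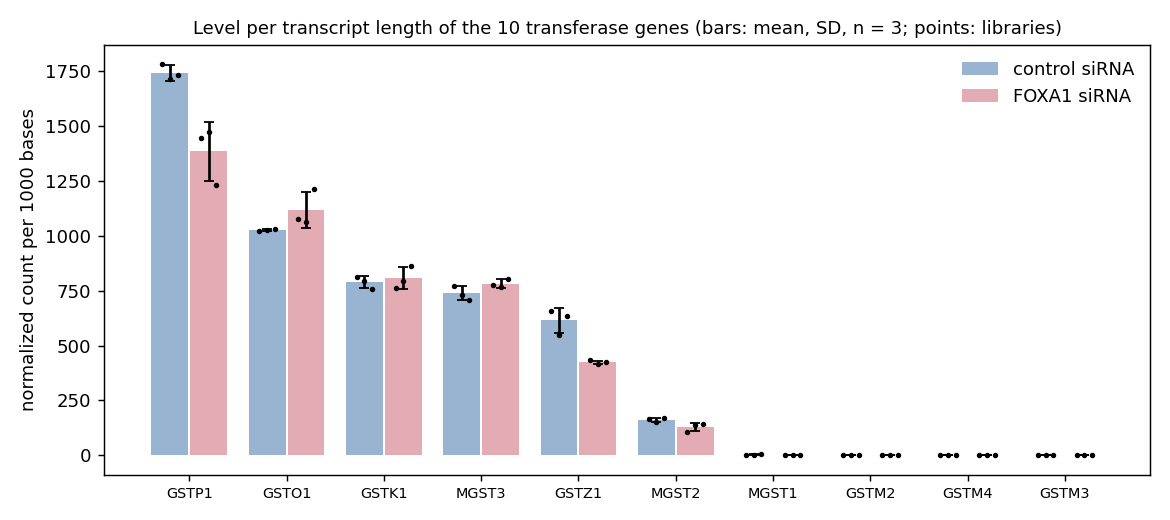
Normalized counts per 1000 bases of principal transcript (vertical axis) of the 10 genes in control siRNA (blue) and FOXA1 siRNA (red) libraries. Bars are means, whiskers SD (n = 3) and points libraries. GSTP1 is highest in both groups, and MGST1, GSTM2, GSTM4 and GSTM3 lie at the axis.

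Shares were taken of the summed level of the 10 genes per length of principal transcript. GSTP1 made up 34.2%, 34.5% and 34.4% in the controls and 31.4%, 31.7% and 26.4% after FOXA1 siRNA. The 3 controls lay within a narrow band, and every FOXA1 siRNA library was below it, replicate 3 by the most. GSTZ1 went from 12.1% ± 0.911 to 9.12% ± 0.238 (SD, n = 3 each). The shares of GSTO1 (20.2% ± 0.546 to 24.1% ± 1.64) and MGST3 (14.5% ± 0.404 to 16.9% ± 0.355) were higher in all 3 FOXA1 siRNA libraries than in any control. The share of GSTK1 was also higher (15.5% ± 0.467 to 17.4% ± 0.950), and that of MGST2 lower (3.19% ± 0.170 to 2.76% ± 0.400), again with no overlap. Each of these differences, in all 6 expressed members, gave an exact two-sided permutation p of 0.1, the smallest that 3 against 3 samples allow, and shares of 1 sum are not independent of each other. The sizes of these shares depend on the length used, which their SDs do not cover. By merged exons, control means on the per-length scale used above were 877 for GSTP1, 639 for GSTO1 and 195 for GSTK1. GSTZ1, MGST3 and MGST2 were at 103, 89.2 and 65.1. By principal transcript the 6 means were 1744, 1027, 789, 616, 738 and 162, in the same order. Shares by merged exons are not given here. A share can rise where its gene does not. By normalized counts GSTO1, GSTK1 and MGST3 were not called (log2 fold change 0.12, 0.03 and 0.09). The raw sum of normalized counts over the 10 genes was 5578, 5286 and 5388 in the controls and 4862, 4917 and 4960 after FOXA1 siRNA. That is a log2 ratio of -0.14 with no overlap between groups (exact permutation p = 0.1).

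FOXA1 knockdown lowered GSTP1, GSTZ1 and, narrowly, MGST2, and no member was called higher. The MGST2 call was lost in 5 of 18 alternatives, and the authors' deposited table gives MGST2 an adjusted p of 0.0901. By limma, 3 of the 6 tested members fell, where 25.0% of all 18460 tested genes fell, 26.8% rose and 51.8% changed in either direction. With 6 genes this count is a description of the members, whose median log2 fold change was -0.15 against 0.0039 over all tested genes. No rise was seen at an unadjusted limma p of 0.05 either (0 of 6), and edgeR and DESeq2 called 0 higher. Control and knockdown values were fully apart in 4 of these 6 genes, against 57.6% of all tested genes. All 3 falls were smaller than 1.5-fold.

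**Figure D2:**
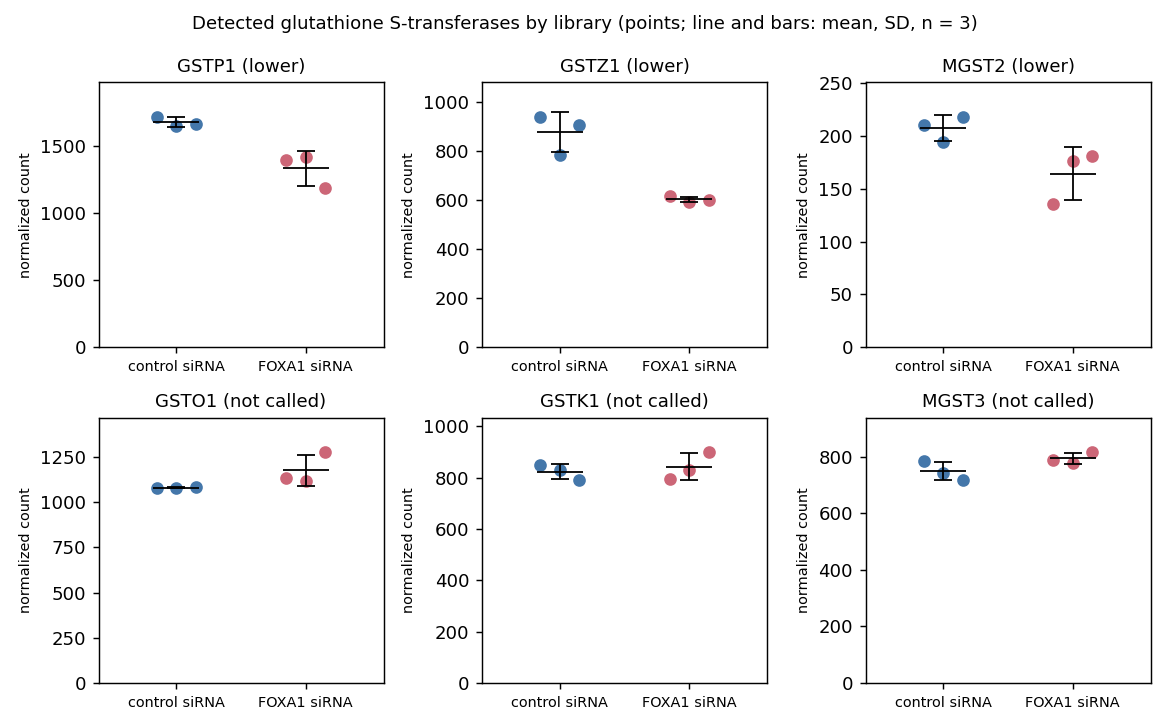
Normalized counts (vertical axes, from 0) of the 6 tested members in each library of control siRNA (blue) and FOXA1 siRNA (red), with the mean and SD (n = 3) in black. All FOXA1 siRNA points of GSTP1, GSTZ1 and MGST2 lie below the controls, and the points of GSTK1 and MGST3 overlap.

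GSTZ1 showed the largest fall. The gene (ENSG00000100577; GRCh38 chromosome 14, 77320884 to 77331597, plus strand, protein-coding) encodes maleylacetoacetate isomerase, which acts in the breakdown of tyrosine and also dechlorinates small haloacids. It was at 940, 784 and 907 normalized counts in the controls and 615, 592 and 603 after FOXA1 siRNA. The knockdown libraries lay close together, and even the lowest control, replicate 2, was above all of them. Knockdown left 68.8% of the control mean, a log2 fold change of -0.53 ± 0.07 (SE; limma adjusted p = 5.01e-07). The authors' deposited table gives -0.54 for GSTZ1 with an adjusted p of 1.47e-08. Of 12223 genes compared over the 6 libraries, those whose centred log2 profiles lay nearest to GSTZ1 were GTF2I (distance 0.07), ZNF558 (0.09) and LNCAROD (0.10).

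The neighbours of GSTZ1 in its pathway were mostly not expressed. Among 4 other genes of tyrosine breakdown, TAT, HPD and HGD had no library above 3.80 normalized counts. FAH, the enzyme of the last step, was at 297, 304 and 324 normalized counts in the controls and 312, 363 and 274 after knockdown, with overlapping groups (log2 fold change 0.03 ± 0.10, limma adjusted p = 0.824).

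GSTP1, the pi class enzyme that also binds the stress kinase JNK, fell by less than GSTZ1 in log2 terms from a higher level. The gene (ENSG00000084207; GRCh38 chromosome 11, 67583595 to 67586656, plus strand, protein-coding) was at 1714, 1649 and 1664 normalized counts in the controls and 1390, 1418 and 1185 after FOXA1 siRNA. The controls agreed closely, and FOXA1 siRNA replicate 3 was the lowest library. This left 79.4% of the control mean, or -0.34 ± 0.06 on the log2 scale (SE; limma adjusted p = 5.52e-05). The values came to -0.33 and an adjusted p of 2.98e-05 in the authors' deposited table for GSTP1. All 50-base windows of the principal transcripts of GSTP1 and GSTZ1 were found in no other gene.

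MGST2, a microsomal enzyme that can make leukotriene C4, passed only narrowly. The gene (ENSG00000085871; GRCh38 chromosome 4, 139665768 to 139740745, plus strand, protein-coding) was at 210, 194 and 218 normalized counts in the controls and 135, 176 and 180 after FOXA1 siRNA. All 3 knockdown libraries were below the lowest control, and replicate 1 lay well below replicates 2 and 3. On the log2 scale MGST2 fell by 0.35 ± 0.12 (SE; limma adjusted p = 0.0181). Without FOXA1 siRNA replicate 1 it was -0.21 and no longer passed (limma adjusted p = 0.157, the highest of 18 alternatives, whose lowest was 0.00315), and leaving out control siRNA replicate 1 or 3 ended the call too (0.0517 and 0.0691). Exons of MAML3, on the opposite strand, cover 252 bases of MGST2 exons. MAML3 itself was lower after knockdown (log2 fold change -0.85 ± 0.28, limma adjusted p = 0.0128) at a mean of 32.0 normalized counts against 185 for MGST2. Whether reads kept strand is not given in the sources used here, and the part of MAML3 in the MGST2 value was not tested.

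The other 3 members did not pass. GSTO1 (ENSG00000148834; GRCh38 chromosome 10, 104235356 to 104267459, plus strand), which reduces dehydroascorbate and methylated arsenic, was at 1078, 1081 and 1084 normalized counts in the controls and 1134, 1120 and 1276 after FOXA1 siRNA. All 3 knockdown libraries were above the controls, replicate 3 by the most, with a log2 fold change of 0.12 ± 0.06 (SE; limma adjusted p = 0.108). GSTK1 (ENSG00000197448; GRCh38 chromosome 7, 143244093 to 143270854, plus strand) was at 849, 830 and 792 and then 796, 832 and 899 normalized counts, with overlapping groups (0.03 ± 0.07, limma adjusted p = 0.724). MGST3 (ENSG00000143198; GRCh38 chromosome 1, 165630861 to 165661796, plus strand), which reduces lipid hydroperoxides with glutathione, was at 785, 743 and 720 and then 789, 779 and 816, also overlapping (0.09 ± 0.07, limma adjusted p = 0.289). The signs of GSTK1 and MGST3 turned negative with equal library totals. Genes with a mean of 500 to 2000, the range that holds these 3 members and GSTP1 and GSTZ1, had a median log2 fold change of 0.07. Summed over MGST1 to MGST3, of which MGST3 made up most, the microsomal genes were at 996, 940 and 941 normalized counts in the controls and 925, 955 and 997 after knockdown. These groups overlapped, with a log2 ratio of 0.0003 (-0.10 with equal totals), while MGST2 within the sum was narrowly called lower.

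Outside the 10 members, 12 of 13 further transferase genes were in the table and 4 were tested, of which 3 fell and 1 rose (25.0% and 26.8% of all tested genes). The theta class pair GSTT2 and GSTT2B both fell. GSTT2 went from 56.1, 84.7 and 94.1 normalized counts to 45.0, 42.5 and 41.5 (log2 fold change -0.82 ± 0.20, limma adjusted p = 0.00139), and GSTT2B from 176, 182 and 185 to 146, 121 and 123 (-0.48 ± 0.12, limma adjusted p = 0.00180). Their transcripts are near-identical, with 11.0% and 9.52% of 50-base windows found in no other gene, so the split between them is uncertain and these 2 falls cannot be told apart. Their sum was 232, 266 and 279 in the controls and 191, 164 and 165 after knockdown, with no overlap (exact permutation p = 0.1). GSTO2, the neighbour of GSTO1, went from 21.9, 18.2 and 34.5 to 9.65, 9.87 and 13.0 normalized counts (-1.09 ± 0.35, limma adjusted p = 0.0112), which rests on 33 reads in the knockdown libraries and did not pass without control siRNA replicate 3 (limma adjusted p = 0.100). The single rise was GSTCD, a protein with a transferase-like domain, from 434 ± 25.6 to 578 ± 18.7 normalized counts (SD, n = 3 each, 0.41 ± 0.08, limma adjusted p = 4.78e-05). INTS12, whose exons overlap those of GSTCD on the opposite strand, was not called (-0.08 ± 0.09). The antisense gene AC008243.1 overlaps GSTCD exons too, and the part of either gene in the GSTCD value was not tested. The alpha class genes GSTA1 to GSTA5 and HPGDS had at most 2 reads each. GSTT1 was not analysed here.

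Of 3 further MAPEG genes, PTGES, the inducible prostaglandin E synthase, rose from 755, 713 and 699 to 1023, 1097 and 1034 normalized counts (log2 fold change 0.54 ± 0.06, limma adjusted p = 5.63e-08). LTC4S, leukotriene C4 synthase, did not pass (0.17 ± 0.27, limma adjusted p = 0.618), and ALOX5AP was at 0. The membrane family thus held MGST2, which was called lower only narrowly, MGST3, which was not called, and PTGES, which rose.

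**Figure D3:**
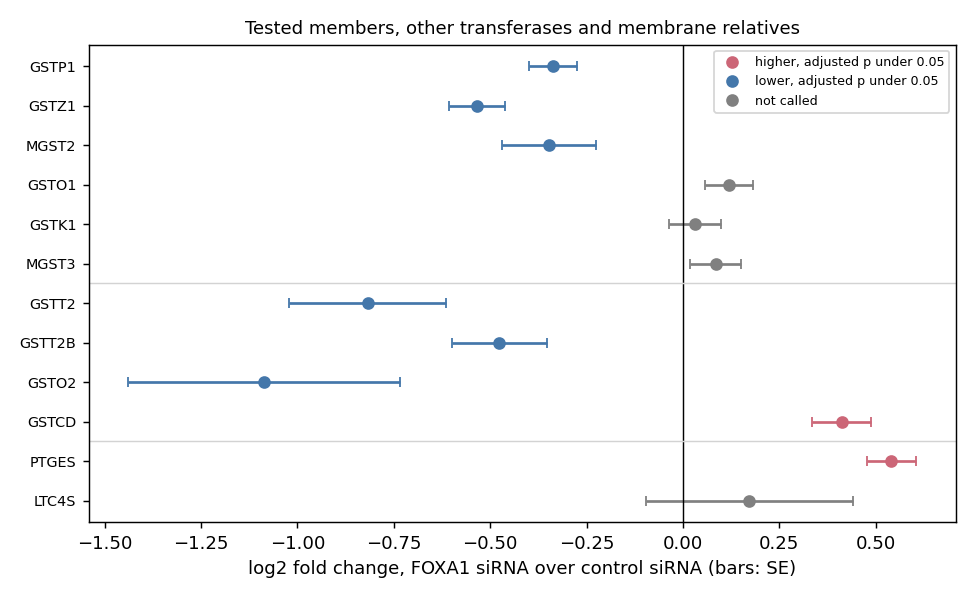
Log2 fold change of FOXA1 siRNA over control siRNA (horizontal axis, points with SE) of the 6 tested members (top), the 4 other tested transferase genes (middle) and 2 membrane relatives (bottom). Blue marks genes called lower, red genes called higher and grey genes not called. GSTZ1 is the lowest member at -0.53, and GSTCD and PTGES lie to the right.

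Of 21 genes listed for the steps after conjugation (export and mercapturate formation), 13 were tested, of which 8 fell, 0 rose and 5 did not pass. The median log2 fold change of the 13 was -0.58 (0.0039 over all tested genes, of which 25.0% fell). At an unadjusted limma p of 0.05 the count of rises was 0 as well, and edgeR and DESeq2 called 0 higher. Leaving aside genes with a mean under 50, the largest falls were those of GGT6, of the gamma-glutamyltransferase family, and ABCC2, the apical conjugate pump MRP2. GGT6 went from 396, 406 and 437 normalized counts to 190, 163 and 195, with every knockdown library at less than any control (-1.18 ± 0.10, limma adjusted p = 6.48e-11). ABCC2 went from 285, 229 and 241 to 102, 109 and 122 (-1.17 ± 0.12, limma adjusted p = 5.74e-09). The 8 that fell were all 5 ABCC pumps of the list and the 3 tested genes of the gamma-glutamyltransferase family, a grouping made after the values were seen. Which of their proteins handle glutathione conjugates in these cells was not tested. Besides ABCC2 and GGT6, the genes that fell were ABCC3 (-0.92 ± 0.06), ABCC4 (-0.68 ± 0.09), ABCC1 (-0.58 ± 0.06), ABCC5 (-0.23 ± 0.06), GGT1 (-1.17 ± 0.29) and GGT7 (-0.83 ± 0.17). GGT1 has near-identical copies, so its value is uncertain. The later peptidase and acylase genes LAP3, CNDP2 and ACY1 and the lyases KYAT1 and KYAT3 did not pass, with log2 fold changes from -0.16 to 0.11.

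**Figure D4:**
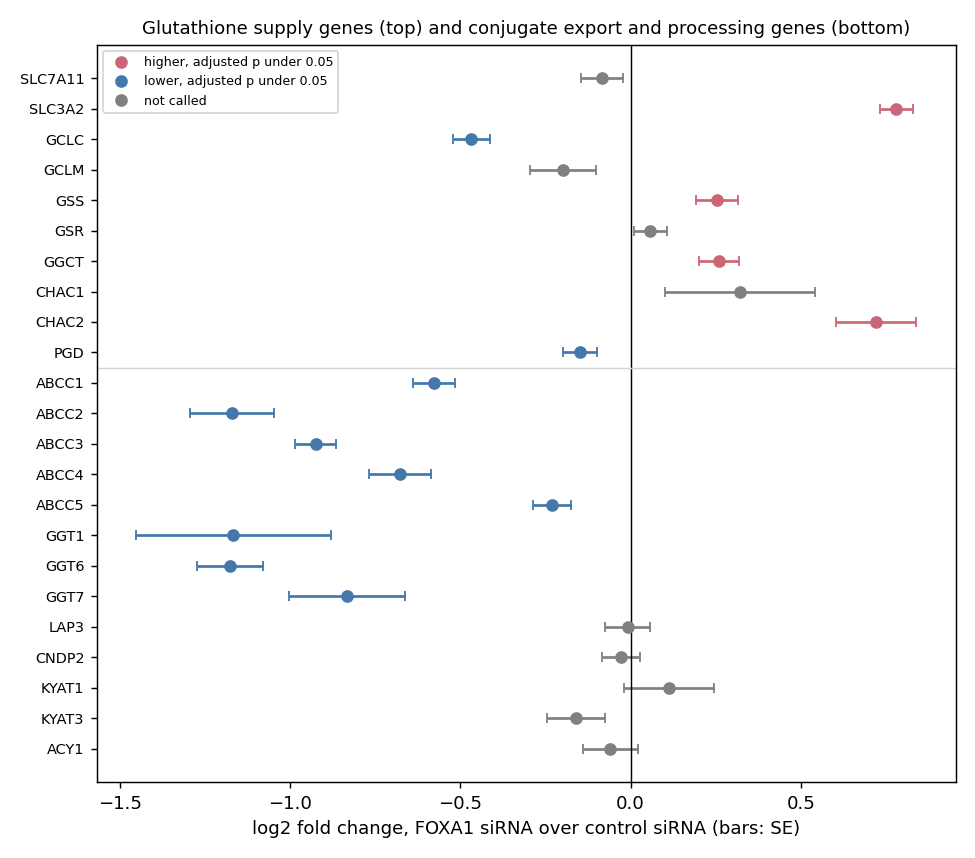
Log2 fold change of FOXA1 siRNA over control siRNA (horizontal axis, points with SE) for 10 tested glutathione supply and turnover genes (top) and 13 tested conjugate export and processing genes (bottom). Blue marks genes called lower, red higher and grey not called. The ABCC and GGT genes lie left of 0, while the supply and turnover genes lie on both sides.

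Genes for the supply and turnover of glutathione went both ways. Of 10 tested, 4 rose and 2 fell, with a median log2 fold change of 0.16, and 51.8% of all tested genes changed in either direction (26.8% rose and 25.0% fell), a share near that of this list. SLC3A2 (0.78 ± 0.05), the partner chain of the cystine transporter, and CHAC2 (0.72 ± 0.12), which degrades glutathione, rose most. SLC7A11, the other chain of that transporter, was not called (-0.08 ± 0.06, limma adjusted p = 0.270). GGCT (0.26 ± 0.06), another rise, encodes an enzyme of glutathione turnover, so the rises are not all of supply genes. The remaining rise was GSS (0.25 ± 0.06), a gene of glutathione synthesis. GCLC (-0.47 ± 0.05), the catalytic subunit of the first step of synthesis, and PGD (-0.15 ± 0.05), a source of NADPH, fell. The count of falls was 1 without control siRNA replicate 1 or 3. Of 11 tested genes for NRF2, its partners and xenobiotic receptors, 2 rose and 3 fell, with a median of -0.07. The share called in this list was no higher than the 51.8% of all tested genes. NFE2L2, which encodes NRF2, went from 7882, 7724 and 7261 to 8580, 8822 and 9124 normalized counts (0.21 ± 0.05, limma adjusted p = 2.74e-04), and NFE2L3 rose as well (0.42 ± 0.10). NFE2L1 (-0.24 ± 0.05) and ARNT (-0.24 ± 0.07) fell. NRF2 protein was not measured, and a link between NFE2L2 and any of the members was not tested. Of 6 genes whose proteins are known to bind or be regulated by transferases, 3 rose and 2 fell at the mRNA level (26.8% and 25.0% of all tested genes), with a median of 0.15. PRDX6 (0.95 ± 0.05), a peroxiredoxin that GSTP1 reactivates, and TRAF2 (0.52 ± 0.08) rose, and MAPK8 (-0.21 ± 0.07), which encodes JNK1, and MAP2K4 (-0.20 ± 0.07) fell. The count of falls was 1 without control siRNA replicate 1 or 2 or without FOXA1 siRNA replicate 1.

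**Figure D5:**
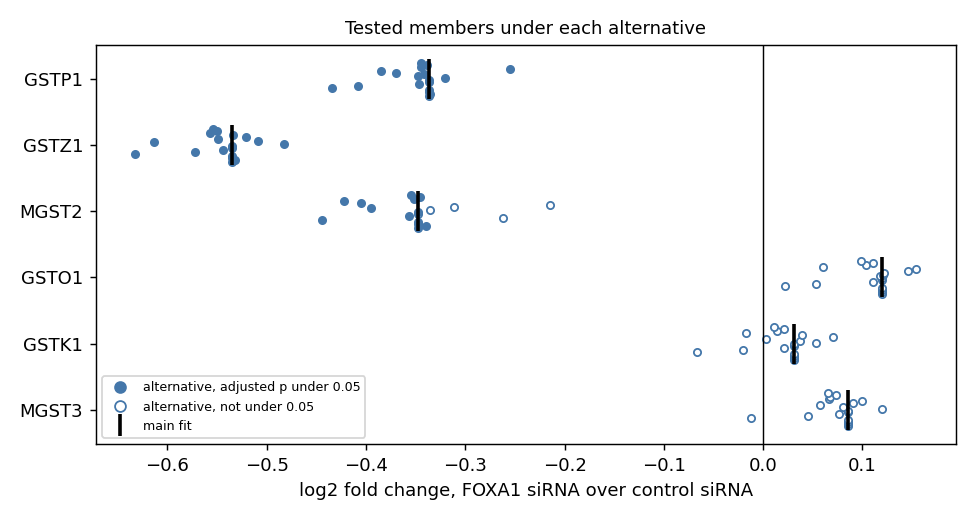
Log2 fold change of FOXA1 siRNA over control siRNA (horizontal axis) of each tested member in the main fit (black line) and under 18 alternatives (points, filled where the adjusted p was under 0.05). GSTP1 and GSTZ1 are filled throughout, MGST2 is open in 5 cases, and GSTO1, GSTK1 and MGST3 are open throughout.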

How the data were processed

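RNA from 6 samples was sequenced after NEBNext Ultra RNA library preparation, per the labels' protocols. HISAT2, DESeq2 and the builds GRCh38 and GRCm38 are named in the submitters' processing notes, without roles or versions, and the counter is not given in the sources used here. The deposited table holds the authors' normalized signal (gene counts that the authors scaled by a factor for each sample) and the mean signal. It also holds the authors' log2 fold change and its SE on the log2 scale, a test score deposited by the authors, and p-values with adjusted p-values deposited by the authors. Of 61862 lines 3 were malformed and left out. Without them 100% of the values were whole reads to within 0.01 read, so reads were recovered.

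Limma 3.58.1 in R 4.3.3 (trend and robust options) was run on log2(normalized count + 1) for the 18460 genes with a mean of at least 10, which understates changes of low genes, with Benjamini-Hochberg adjustment over all of them at 0.05. EdgeR 4.0.16 (quasi-likelihood) on the recovered reads called 9538 genes, DESeq2 1.42.0 called 8493 and limma 9571. In simulated data the fit called 60 of 67 genes changed 1.5-fold, all of those changed 2-fold or 4-fold, and 15 unchanged genes. Far fewer genes were changed there than were called here. No fold under 1.5 was simulated, so the simulation does not cover falls as small as those of the members. Groups and replicate numbers came from sample titles, and no library was a duplicate of another in its group (chi-square per gene of 2.51 to 5.14, where 1 is sampling noise).

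The members and lists were chosen with earlier results of these data known. Named were all members, FOXA1, detected further transferases, up to 2 rises and 2 falls per list among called genes with a mean of at least 50, and the 3 genes nearest in profile to the member that fell most. Other genes named were chosen after their values were seen. Positions, lengths and shared 50-base windows came from GENCODE release 29 (GRCh38) and promoters from RefSeq (GRCh38.p14). For 3 genes of the lists, results are not reported here, and the counts leave them out.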

Additional observations from a re-analysis of the deposited data

How the results depend on the processing

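The falls of GSTP1 (log2 fold change -0.43 to -0.25) and GSTZ1 (-0.63 to -0.48) passed under all 18 alternatives, and GSTO1 never passed (0.02 to 0.15). The highest adjusted p-values of GSTP1 (0.0223) and GSTZ1 (0.00438) came from limma without trend and robust options. MGST2 lost its call with quantile normalization (-0.26, limma adjusted p = 0.0727) and with limma without trend and robust options (-0.35, adjusted p = 0.0716). It also lost it without control siRNA replicate 1 or 3 or FOXA1 siRNA replicate 1, and kept it without any other single library. Values without 1 library were -0.42 to -0.21. GSTK1 changed sign with equal totals (-0.067), with quantile normalization (-0.021) and without FOXA1 siRNA replicate 3 (-0.017). Without any other single library it stayed positive, up to 0.071 without FOXA1 siRNA replicate 1. MGST3 changed sign with equal totals (-0.012), and none of these values was called. Equal totals moved the median of all genes from 0.0039 to -0.09 and the share of calls that were higher from 51.8% to 37.6%, and gave log2 ratios of -0.24 for the sum of the 10 members and -0.10 for the microsomal sum. With quantile normalization these were -0.19 for the 10 members, and -0.44 for GSTT2 with GSTT2B. The mu class sum ranged from -2.75 to -0.50 over 5 cases of 1 library left out, on at most 6 reads. Without FOXA1 siRNA replicate 1, which held the only mu class read of its group, there was no ratio. Falls among supply genes numbered 4 with equal totals, 1 with limma without trend and robust options and 1 to 3 without single libraries, rises among NRF2 and receptor genes 1 with quantile normalization, and falls among partner genes 1 with limma without trend and robust options and 1 to 2 without single libraries (1 without control siRNA replicate 1 or 2 or FOXA1 siRNA replicate 1). The replicate numbers did not pair the samples (correlations of same-numbered deviations -0.01 to 0.01). With the replicate block 9332 genes were called against 9571, MGST2 had an adjusted p of 0.0230, and no call on a member changed. The merged exon length was added after seeing the data. MGST1 and the mu class genes were under the mean of 10 and were not tested in the main analysis, and with no filter on low values no further member was called.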
